A study of Mus musculus with 20 samples.

Results

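Genes that report on fibroblast growth factor (FGF) and ERK signalling were followed in the mouse melanoblast line melb-a after transduction with hairpins against the histone chaperone gene Hira. The set holds 9 genes taken by symbol from the count and TPM tables: the ETS factor genes Etv1, Etv4 and Etv5, the Sprouty genes Spry1, Spry2 and Spry4, the Spred genes Spred1 and Spred2, and Phlda1. They are 9 of 29956 gene rows, and all 9 passed the filter on low counts that left 13541 genes for testing. A high level of Etv4 with 1 of the hairpins was known when the genes were chosen, so the values of Etv4 in that comparison are given as a description without a p-value.

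Poly(A) RNA was sequenced from 5 groups of 4 libraries, which the design text calls independent replicates. All cells carried the label wild type and grew in 10% serum with 10 ng/ml SCF and 40 pM Fgf2, so every group, the untreated one included, received an FGF and the ligand of Kit. Parental cells received no virus. The other groups received lentivirus and were selected with puromycin, and carried a hairpin against luciferase (shLuciferase), a scrambled hairpin (shScramble), or either of 2 hairpins named shHIRA I and shHIRA II. The shLuciferase and shScramble libraries together are called the 8 control shRNA libraries. Each shHIRA group was compared with their mean on its own.

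FGF binding to its receptors activates RAS and then the kinases RAF, MEK and ERK. Etv1, Etv4 and Etv5 form the PEA3 subfamily of ETS transcription factors, whose genes are commonly induced downstream of FGF and ERK and are held down by the repressor Capicua (Cic) until ERK signalling relieves it. Sprouty and Spred proteins inhibit the same pathway, several of them being induced by it. Spred proteins bring the RAS-inactivating protein neurofibromin to the membrane, and loss of human SPRED1 causes a syndrome with pigmented skin patches. Phlda1, a pleckstrin homology-like protein, is another gene commonly induced by growth factors through ERK. Melanoblasts, the precursors of pigment cells, depend on Kit, which signals through this cascade, and FGF2 is widely used to grow melanocytes in culture.

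In GENCODE M21 (GRCm38) the PEA3 genes lie at chr12:38779380-38870484 (Etv1, plus strand), chr11:101769742-101785371 (Etv4, minus) and chr16:22381309-22439719 (Etv5, minus). Among the Sprouty genes, positions are chr3:37639947-37644598 (Spry1, plus) and chr14:105891947-105896819 (Spry2, minus). Spred1 is at chr2:117121374-117182279, Spred2 at chr11:19924375-20024026 and Phlda1 at chr10:111506286-111508645, all on the plus strand. Counts cover whole genes, so no single exon or isoform is resolved.

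Promoter sequence is shown for 3 genes that rose with shHIRA II, so that their upstream letters can be set side by side. RefSeq promoters (GRCm38.p6) were matched for 6 of the 9 genes, at 8 start sites. The 250 bases before a start are printed 5′ to 3′ on the gene's strand, from windows that hold 0 bases of annotated exons, and capitals mark motif matches. They are Etv5 at its inner start (chr16:22438369-22438618, minus strand), Spry2 (chr14:105896820-105897069, minus strand) and Etv1 at its outer start (chr12:38779832-38780081, plus strand).
Etv5: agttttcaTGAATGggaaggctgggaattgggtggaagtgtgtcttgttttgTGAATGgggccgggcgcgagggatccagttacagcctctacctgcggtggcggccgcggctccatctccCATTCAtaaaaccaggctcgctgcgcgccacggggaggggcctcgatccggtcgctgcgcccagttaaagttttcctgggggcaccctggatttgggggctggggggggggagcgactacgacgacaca
Spry2: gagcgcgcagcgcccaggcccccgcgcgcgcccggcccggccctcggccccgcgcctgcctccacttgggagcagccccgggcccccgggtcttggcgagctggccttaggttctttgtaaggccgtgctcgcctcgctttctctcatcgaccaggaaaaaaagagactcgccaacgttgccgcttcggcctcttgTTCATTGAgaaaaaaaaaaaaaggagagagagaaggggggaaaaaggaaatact
Etv1: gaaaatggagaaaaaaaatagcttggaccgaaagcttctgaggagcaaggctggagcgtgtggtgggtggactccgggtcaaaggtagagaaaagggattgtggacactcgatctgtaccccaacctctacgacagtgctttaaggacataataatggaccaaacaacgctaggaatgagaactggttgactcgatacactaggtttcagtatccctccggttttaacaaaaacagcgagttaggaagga

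Motifs were searched on both strands over 300 bases, from 250 before to 50 after each start. The 8-letter forms of the Capicua site, TGAATGAA or TGAATGGA or TCAATGAA or TCAATGGA, were present in 3.84% of 32851 RefSeq promoters of that length. Among the members' promoters Spry2 alone held a match, TCAATGAA on the opposite strand, with its first base at -54 from the start. The shorter core TGAATG, which the first pair of those forms contains and which was searched after the sequence had been seen, occurred at least once in 12.7% of promoters and 3 or more times in 0.17%. The inner Etv5 promoter held it 3 times, with first bases at -242, -198 and -129. The ETS letters CCGGAAGT, present in 3.89% of promoters, were found in none of the members' 8 promoters. These are matches of letters, not measured binding.

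Estimated counts came to between 15 and 20.7 M (1e6) per library. Hira, the targeted gene, checked the labels: it stood at 63.7 to 89.8 counts per 1e6 counts (CPM, with TMM-scaled library sizes) with shLuciferase, 64.4 to 81.7 with shScramble, 26.6 to 45.4 with shHIRA I and 63.2 to 70.9 with shHIRA II. Hira fell with shHIRA I by 1.05 ± 0.14 on the log2 scale (SE; edgeR quasi-likelihood test, adjusted p = 5.15e-05) and not detectably with shHIRA II (-0.19 ± 0.14, adjusted p = 0.306), so the latter are called the libraries labelled shHIRA II. With the mitochondrial share as a term in the fit, Hira passed as lower with shHIRA II (-0.46, adjusted p = 0.0394). The share of counts from mitochondrial genes was 2.88 to 4.71% in the libraries labelled shHIRA II and 6.43 to 9.96% in the control shRNA libraries. Its part in the results was not tested beyond a fit with that share as a term. As the ranges do not overlap, that fit cannot tell the share and shHIRA II apart. Of 10 melanoblast and melanocyte markers, 9 were tested; their summed level over all 10 was 2480 to 4290 TPM in parental and control shRNA libraries, 975 to 2990 with shHIRA I and 661 to 1060 with shHIRA II. With shHIRA II 7 of 9 fell and 0 rose, and with shHIRA I 4 of 9 fell and 0 rose. Over all genes tested, 16.7% fell and 15.7% rose with shHIRA II, and 8.87% fell and 10.9% rose with shHIRA I. Those shares are the background for all marker counts here. Mitf, the master regulator of the lineage, was at 124 to 183 TPM in parental libraries, whereas Sox10 ran from 0.063 to 11.2 TPM there and Ednrb was at 0. Summed levels of 6 fibroblast markers were 21.4 to 48.1 TPM in parental and control shRNA libraries, 55.8 to 122 with shHIRA I and 7.65 to 15.7 TPM with shHIRA II. Of these 6, 4 rose and 0 fell with shHIRA I, and 0 rose and 4 fell with shHIRA II. Markers of Schwann cells and glia summed to 235 to 473 TPM in parental and control shRNA libraries, 103 to 392 with shHIRA I, where 2 of 6 fell, and 173 to 186 with shHIRA II, where 4 of 6 fell. Those of leukocytes summed to 7.19 to 14.9, 12.2 to 17.8 and 7.13 to 10.1 TPM in the same order, and both tested ones fell with shHIRA II. Markers of epithelium summed to 3.53 to 9.03, 2.13 to 6.68 and 1.14 to 2.45 TPM; of these 6, Krt1 and Epcam were at 0 in every library. The part of these markers in the results was not tested.

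Libraries numbered 1 stood apart for some members before any comparison of groups. Etv4 and Etv5 were highest in library 1 of all 5 groups, and Etv1, Spry2, Spry4 and Spred2 in 4 of 5. Of all genes tested, 0.931% were highest in library 1 of every group and 5.97% in library 1 of at least 4 groups. In library 1, Etv4 was 2.81, 5.28, 5.01, 6.16 and 1.64 times the mean of libraries 2 to 4 in the parental, shLuciferase, shScramble, shHIRA I and shHIRA II groups. The same ratios were 3.5, 3.64, 2.83, 2.03 and 1.51 for Etv5, and 2.83, 4.22, 5.07, 4.94 and 1.33 for Spry4. For these 3 genes the excess was smallest in the libraries labelled shHIRA II, a difference that was not tested. Phlda1 did not share the pattern and was highest in library 1 of 1 group. The results for Etv4, Etv5 and Spry4 are therefore also given without the 5 libraries numbered 1, a fit added after the data were seen. The labels do not say what a number stands for.

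**Figure D1:**
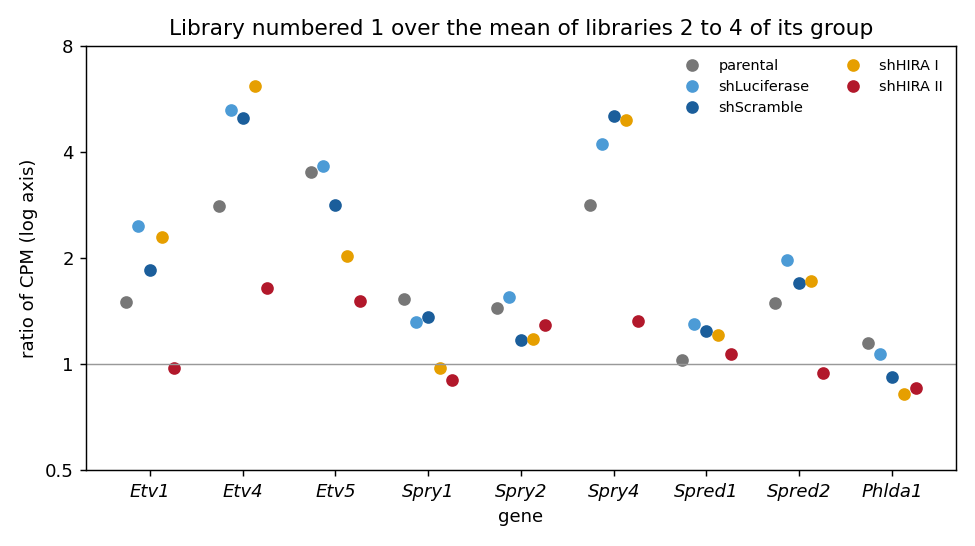
Ratio of CPM in the library numbered 1 to the mean of libraries 2 to 4 of the same group (log axis), 1 point per group for each of the 9 genes. Etv4, Etv5 and Spry4 lie above 1 in every group, up to 6.16 for Etv4 with shHIRA I, while Phlda1 lies close to 1.

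With shHIRA II, all 3 PEA3 factor genes were high. Etv4, which was near the lower end of detection in parental cells, stood at 3.87, 0.991, 1.61 and 1.54 CPM in parental libraries 1 to 4, at 11.6, 0.495, 3.21 and 2.90 CPM with shLuciferase, and at 5.55, 0.852, 1.35 and 1.12 CPM with shScramble. It stood at 65.3, 38.2, 31.9 and 49.4 CPM in libraries labelled shHIRA II and at 21.9, 1.62, 4.38 and 4.65 CPM with shHIRA I. All 4 libraries labelled shHIRA II lay above all 16 others, whereas shHIRA I overlapped the control shRNA libraries. The estimated counts behind these values ran from 10 to 1149 per library. The fitted difference of shHIRA II from control shRNA was 3.86 ± 0.65 on the log2 scale (SE), 14.5-fold with a 95% interval of 5.62 to 37.5. That interval is for the fitted mean difference, judged against the spread between libraries. It is no test, as the rise was known when the genes were chosen. The difference was 4.68 on the log2 scale without the libraries numbered 1 and 3.13 with the mitochondrial share as a term in the fit. Etv4 with shHIRA I was not called at 1.36 ± 0.65 (edgeR quasi-likelihood test, adjusted p = 0.16; 95% interval of the fold, 0.99 to 6.62). The value rested on libraries numbered 1 on both sides: it was 0.15 without shHIRA I library 1, and passed at 1.87 without shLuciferase library 1 (adjusted p = 0.042) and at 1.85 without shScramble library 1 (adjusted p = 0.0496). Without all libraries numbered 1 it was 1.18 and did not pass.

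Etv5, a PEA3 factor also known from FGF-dependent stem and progenitor cells, stood at 57.5, 19.1, 19.6 and 10.6 CPM in parental libraries 1 to 4, 81.6, 13.5, 26.8 and 26.9 CPM with shLuciferase, and 68.7, 22.0, 26.6 and 24.3 CPM with shScramble. It stood at 140, 69.8, 86.2 and 123 CPM in libraries labelled shHIRA II and at 41.6, 18.6, 9.99 and 32.9 CPM with shHIRA I. The shHIRA II libraries overlapped the controls at 1 point only, library 1 of shLuciferase, which lay above library 2 of shHIRA II. Etv5 rose with shHIRA II 2.89-fold (log2 1.53 ± 0.47, SE; edgeR quasi-likelihood test, adjusted p = 0.0174) and was at -0.49 ± 0.50 with shHIRA I (adjusted p = 0.536; -0.19 without the libraries numbered 1). The call with shHIRA II was lost without library 1 of that group (1.37, adjusted p = 0.0631), and without the libraries numbered 1 in all groups the difference was 2.01 (adjusted p = 0.000699). Against shLuciferase alone the difference was 1.5 (adjusted p = 0.0643) and against shScramble alone 1.57 (adjusted p = 0.0529).

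Etv1, which acts downstream of Kit in the pacemaker cells of the gut, stood at 4.42, 3.30, 2.18 and 3.39 CPM in parental libraries, 8.72, 2.53, 3.77 and 4.33 CPM with shLuciferase, and 7.45, 4.54, 3.78 and 3.74 CPM with shScramble. It stood at 12.2, 9.68, 15.8 and 12 CPM in libraries labelled shHIRA II and at 4.23, 1.84, 0.753 and 2.92 CPM with shHIRA I. Every library labelled shHIRA II lay above every other library, and shHIRA I overlapped the controls from below. Etv1 rose 2.55-fold with shHIRA II (log2 1.35 ± 0.35, SE; edgeR quasi-likelihood test, adjusted p = 0.00618). With shHIRA I it was -0.98 ± 0.38 and was not called (adjusted p = 0.0801), although it passed without shLuciferase library 2 (-1.09, adjusted p = 0.0469) or without shHIRA I library 1 (-1.39, adjusted p = 0.0294), and by DESeq2 (adjusted p = 0.0412). Leaving out 1 library gave values from -1.39 to -0.70. The lowest level, 0.753 CPM, was in library 3 of shHIRA I, which had a mitochondrial share of 1.23%.

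**Figure D2:**
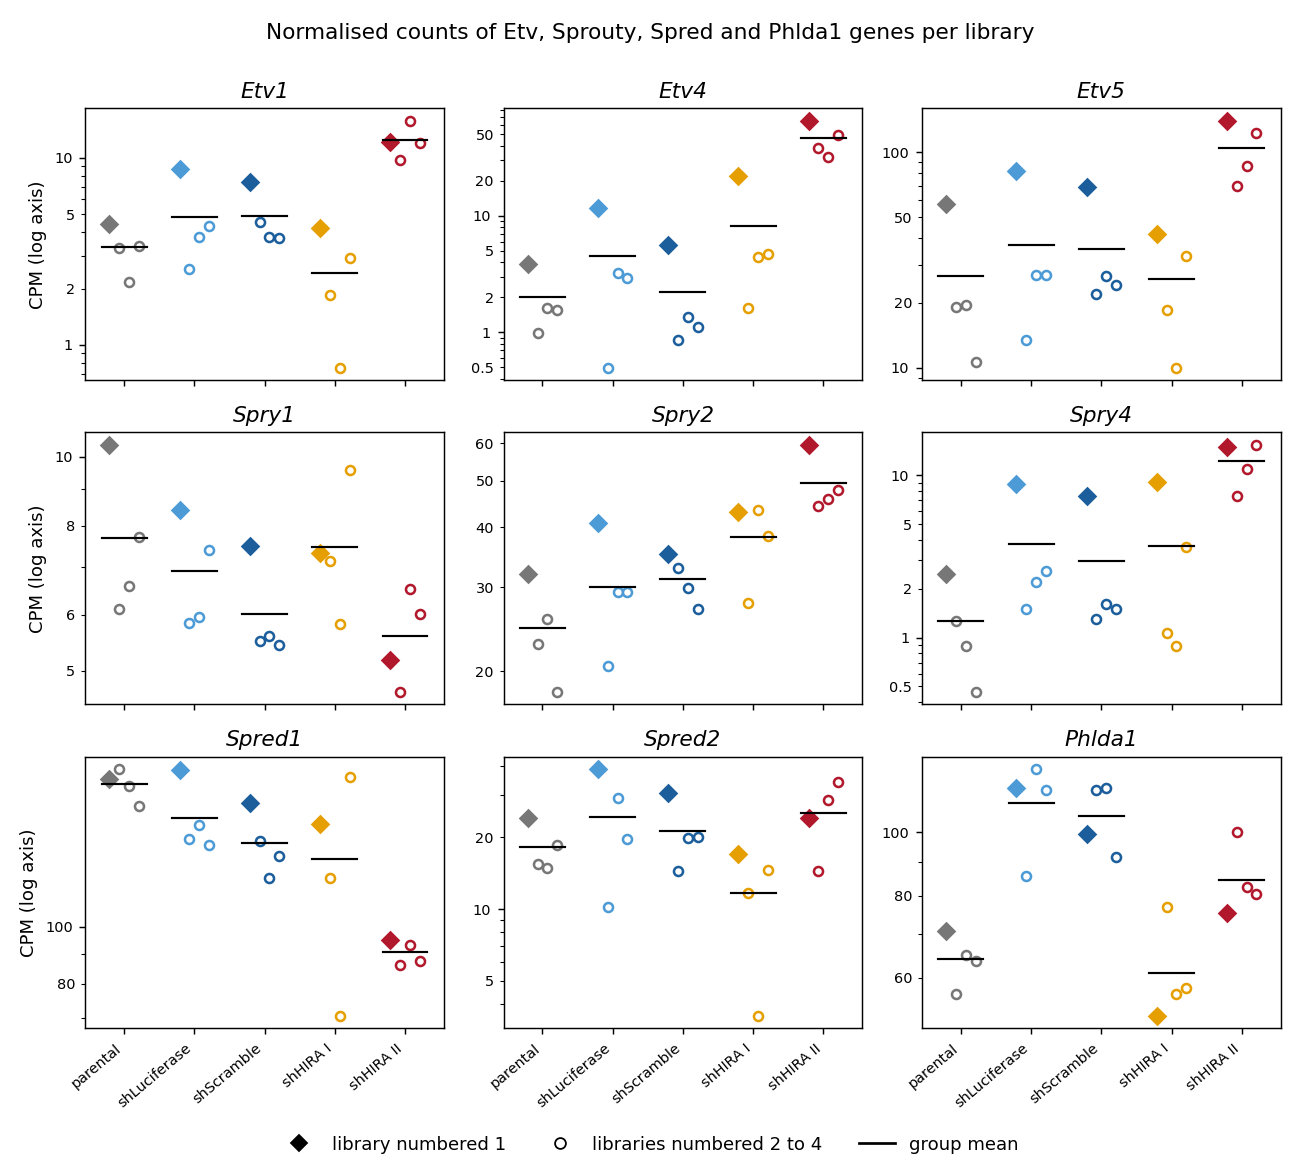
CPM per library on a log axis for each of the 9 genes in 5 groups of 4 libraries; filled diamonds are libraries numbered 1, open circles libraries 2 to 4 and black lines group means. Etv1 and Etv4 lie above every other library in the 4 libraries labelled shHIRA II, Spred1 lies below all control shRNA libraries there, and Phlda1 is low in the parental and shHIRA I groups.

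The makeup of the PEA3 transcripts is given per group as a description. On the TPM scale, which divides by transcript length and so allows genes to be compared, Etv1, Etv4 and Etv5 summed to 9.6 ± 6 TPM in parental cells (SD, n = 4), 16.4 ± 13.8 with shLuciferase, 13.5 ± 9.19 with shScramble, 15.9 ± 12.9 with shHIRA I and 72.6 ± 23.2 with shHIRA II. Etv5 supplied most of that sum in parental, shLuciferase and shScramble libraries, at mean shares of 69.8%, 68.4% and 73.9%. Etv4 supplied 14.4%, 17% and 10.1% there, 35.9 ± 18.5% with shHIRA I (SD, range 16.2 to 53.4%) and 48.4 ± 4.81% with shHIRA II (range 42.4 to 53.3%). The mean share of Etv5 was 43.8% in the libraries labelled shHIRA II. The shares rest on the level of Etv4 and carry no test.

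**Figure D3:**
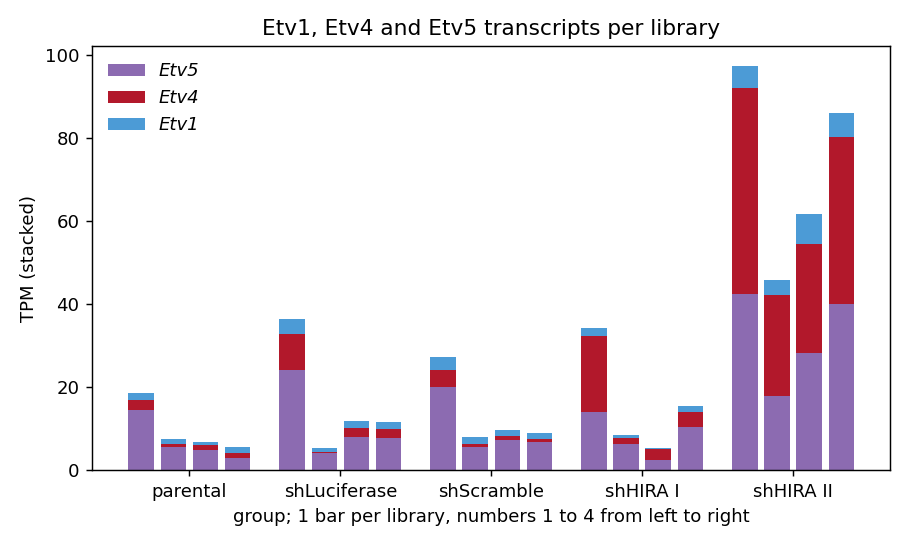
Stacked TPM of Etv5, Etv4 and Etv1 in each library, 1 bar per library, 4 bars per group with numbers 1 to 4 from left to right. The mean sum is 72.6 TPM in the libraries labelled shHIRA II and 9.6 to 16.4 TPM in the other groups, and library 1 has the tallest bar in all groups.

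The Sprouty genes differed among themselves. Spry4, a Sprouty gene commonly induced by FGF, stood at 2.46, 1.27, 0.881 and 0.462 CPM in parental libraries, 8.78, 1.49, 2.19 and 2.56 CPM with shLuciferase, and 7.45, 1.31, 1.6 and 1.5 CPM with shScramble. It stood at 15, 7.43, 11.0 and 15.4 CPM in libraries labelled shHIRA II and at 9.15, 1.06, 0.889 and 3.61 CPM with shHIRA I. The lowest shHIRA II library lay just under both control libraries numbered 1 and above the other 6 control libraries. Spry4 rose 3.66-fold with shHIRA II (log2 1.87 ± 0.60, SE; edgeR quasi-likelihood test, adjusted p = 0.0226), with 9 to 274 counts per library behind its values. The call was lost without library 1 (1.77, adjusted p = 0.0624) or library 4 (1.76, adjusted p = 0.0573) of shHIRA II, and the difference was 2.7 without all libraries numbered 1 (adjusted p = 0.000556). Against shLuciferase alone it was 1.71 (adjusted p = 0.101) and against shScramble alone 2.04 (adjusted p = 0.0536). With shHIRA I, Spry4 was at 0.15 ± 0.63 (adjusted p = 0.902), at -0.84 without library 1 of shHIRA I and at 0.10 without all libraries numbered 1.

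Spry2, the Sprouty gene with the highest TPM here, stood at 32, 22.8, 25.7 and 18.1 CPM in parental libraries, 40.8, 20.5, 29.3 and 29.3 CPM with shLuciferase, and 35.1, 32.9, 29.8 and 27.0 CPM with shScramble. It stood at 59.5, 44.4, 45.9 and 47.8 CPM in libraries labelled shHIRA II and at 43.0, 27.8, 43.5 and 38.3 CPM with shHIRA I. The former all lay above every other library. Spry2 rose 1.62-fold with shHIRA II (log2 0.69 ± 0.17, SE; edgeR quasi-likelihood test, adjusted p = 0.0049), and with shHIRA I it was at 0.32 ± 0.17 (adjusted p = 0.216). Spry1, the Sprouty gene best known from kidney development, had group means between 5.59 and 7.69 CPM. It was at 0.21 ± 0.19 with shHIRA I (adjusted p = 0.468) and at -0.20 ± 0.19 with shHIRA II (adjusted p = 0.447), intervals of 0.881 to 1.53 and 0.656 to 1.15 in fold. A gene model of unsettled status lies on the opposite strand of Spry1 with overlapping exons, and whether counting used strand is not stated in the labels.

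Of the Spred genes, Spred1 fell with shHIRA II, where Spry2 and Spry4 rose. Spred1 stood at 179, 186, 174 and 161 CPM in parental libraries, 185, 141, 149 and 138 CPM with shLuciferase, and 163, 140, 121 and 132 CPM with shScramble. It stood at 95.1, 86.1, 93.2 and 87.3 CPM in libraries labelled shHIRA II and at 150, 121, 70.4 and 180 CPM with shHIRA I. The shHIRA II libraries lay below all parental and control shRNA libraries, and shHIRA I ran from below them up to 180 CPM. Spred1 fell 1.61-fold with shHIRA II (log2 -0.69 ± 0.17, SE; edgeR quasi-likelihood test, adjusted p = 0.00551) and was at -0.16 ± 0.17 with shHIRA I (adjusted p = 0.554). Library 3 of shHIRA I, at 70.4 CPM, also had the lowest mitochondrial share of all libraries, 1.23%; without it the shHIRA I value was 0.04. Without all libraries numbered 1, the value of Spred1 with shHIRA II was -0.6 on the log2 scale and missed the threshold (adjusted p = 0.0538).

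Spred2, a broadly expressed relative of Spred1, stood at 24.2, 15.5, 14.9 and 18.5 CPM in parental libraries, 38.7, 10.2, 29.1 and 19.6 CPM with shLuciferase, and 30.8, 14.4, 19.9 and 20.0 CPM with shScramble. It stood at 24.2, 14.4, 28.7 and 34.1 CPM in libraries labelled shHIRA II and at 17.1, 11.7, 3.56 and 14.6 CPM with shHIRA I. Both groups overlapped the controls, with library 3 of shHIRA I below all others. Spred2 was at -0.95 ± 0.37 with shHIRA I (SE; edgeR quasi-likelihood test, adjusted p = 0.0789), which passed without shLuciferase library 2 (-1.08, adjusted p = 0.0316) and by DESeq2 (adjusted p = 0.0414), and at 0.16 ± 0.35 with shHIRA II (adjusted p = 0.765). Leaving out 1 library gave shHIRA I values from -1.2 to -0.66. Library 3 of shHIRA I, the lowest for Spred2, had a mitochondrial share of 1.23%.

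Phlda1 differed between control shRNA and parental libraries as well as with the shHIRA hairpins. It stood at 70.7, 56.6, 64.9 and 63.6 CPM in parental libraries, 117, 85.8, 125 and 116 CPM with shLuciferase, and 99.5, 116, 117 and 91.6 CPM with shScramble. It stood at 75.3, 100, 82.5 and 80.6 CPM in libraries labelled shHIRA II and at 52.4, 77.0, 56.7 and 57.8 CPM with shHIRA I. All 8 control shRNA libraries lay above the parental ones, all shHIRA I libraries lay below the controls, and shHIRA II lay between with some overlap. Phlda1 fell 1.78-fold with shHIRA I against control shRNA (log2 -0.83 ± 0.13, SE; edgeR quasi-likelihood test, adjusted p = 0.000265). Against parental cells the shHIRA I value was -0.07 (adjusted p = 0.814). With shHIRA II, Phlda1 fell 1.28-fold against control shRNA (-0.36 ± 0.13, adjusted p = 0.0441), and against parental cells the sign turned to 0.41 (adjusted p = 0.0487). That fall is close to the threshold and was lost on leaving out any of 8 libraries (shLuciferase 1, 3 or 4, shScramble 2 or 3, shHIRA II 1, 3 or 4), with adjusted p from 0.0571 to 0.171. It was also lost with DESeq2's size factors in edgeR (RLE, adjusted p = 0.0594), with no filter on low counts (0.0822), on TPM with limma (0.135), and against shLuciferase (0.0656) or shScramble (0.121) alone. A noncoding gene lies on the opposite strand of Phlda1 with overlapping exons, and the same limit on strand applies.

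Counted over the set, 1 of 9 members was called with shHIRA I, Phlda1, where 19.7% of all genes tested were called. With shHIRA II, 6 of the 8 members other than Etv4 were called, 4 higher (Etv1, Etv5, Spry2 and Spry4) and 2 lower (Spred1 and Phlda1), against 32.4% of all genes tested, 15.7% higher and 16.7% lower. The libraries labelled shHIRA II all lay above the 8 control shRNA libraries for Etv1 and Spry2, as 11.3% of all genes did, and all below for Spred1, as 12.7% did. With shHIRA I, Phlda1 alone lay below all controls, as 4.52% of all genes did. The median log2 fold change of the 8 members was 0.42, beside 0.02 over all genes tested, and that of the 9 with shHIRA I was -0.16, beside 0.05. Leaving out library 1 of shHIRA II reduced the 6 to 3, and without all libraries numbered 1 there were 4 higher and 0 lower. With the mitochondrial share as a term in the fit, 0 of the 8 were called with shHIRA II; Etv1 was then at 1.49 (adjusted p = 0.0545), Etv5 at 1.68 (0.103), Spry4 at 1.79 (0.219), Spry2 at 0.52 (0.114), Spred1 at -0.42 (0.182) and Phlda1 at -0.31 (0.208). Without that term the values were 1.35, 1.53, 1.87, 0.69, -0.69 and -0.36 in the same order of genes. The share was 2.88 to 4.71% in the libraries labelled shHIRA II and 6.43 to 9.96% in the control shRNA libraries. These ranges do not overlap, so share and hairpin cannot be told apart in this comparison. In bulk RNA, fewer cells of a kind and less RNA per cell cannot be told apart.

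The hairpins were then set directly against each other, since a call with 1 and not with the other does not show a difference. Of the 8 members other than Etv4, 3 were called, all higher with shHIRA II, where 21% of all genes tested were called and 8.6% were higher. Etv1 was 5.05-fold higher with shHIRA II than with shHIRA I (log2 2.34 ± 0.44, SE; edgeR quasi-likelihood test, adjusted p = 0.00117), Etv5 was 4.06-fold higher (2.02 ± 0.58, adjusted p = 0.0184) and Phlda1 1.39-fold higher (0.47 ± 0.15, adjusted p = 0.0303). The libraries of the 2 hairpins did not overlap for Etv1, Etv5 and Spry2, all higher with shHIRA II as were 8.71% of all genes tested, and did overlap for Phlda1. The Etv5 difference was lost without library 2 of shHIRA I (1.89, adjusted p = 0.0579) or library 1 of shHIRA II (1.87, adjusted p = 0.052), and that of Phlda1 without any of 4 libraries (shHIRA I 1, 3 or 4, shHIRA II 2), with adjusted p from 0.0537 to 0.105, or with only the groups compared in the fit (0.128). Spry4 (1.72 ± 0.74, adjusted p = 0.106), Spry2 (0.37 ± 0.20, adjusted p = 0.209), Spred1 (-0.53 ± 0.20, adjusted p = 0.0628) and Spred2 (1.11 ± 0.41, adjusted p = 0.065) did not pass. Spry4 passed without library 1 of shHIRA I (2.72, adjusted p = 0.0191), Spred1 without library 3 (-0.75, adjusted p = 0.000669), and Spred2 without library 1 of shHIRA I (1.36, adjusted p = 0.0408) or library 2 of shHIRA II (1.3, adjusted p = 0.0439). Leaving out 1 library gave ranges of 1.39 to 2.72 for Spry4, -0.75 to -0.33 for Spred1 and 0.79 to 1.36 for Spred2. Etv4 was 2.5 ± 0.8 higher with shHIRA II than with shHIRA I on the log2 scale, given without a test; this was 3.72 without library 1 of shHIRA I. Without all libraries numbered 1, the difference between the hairpins was 3.5 for Etv4, 2.2 for Etv5 (adjusted p = 0.00362) and 2.61 for Spry4, which then passed (adjusted p = 0.00626), while that of Phlda1 was lost (0.48, adjusted p = 0.0946).

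**Figure D4:**
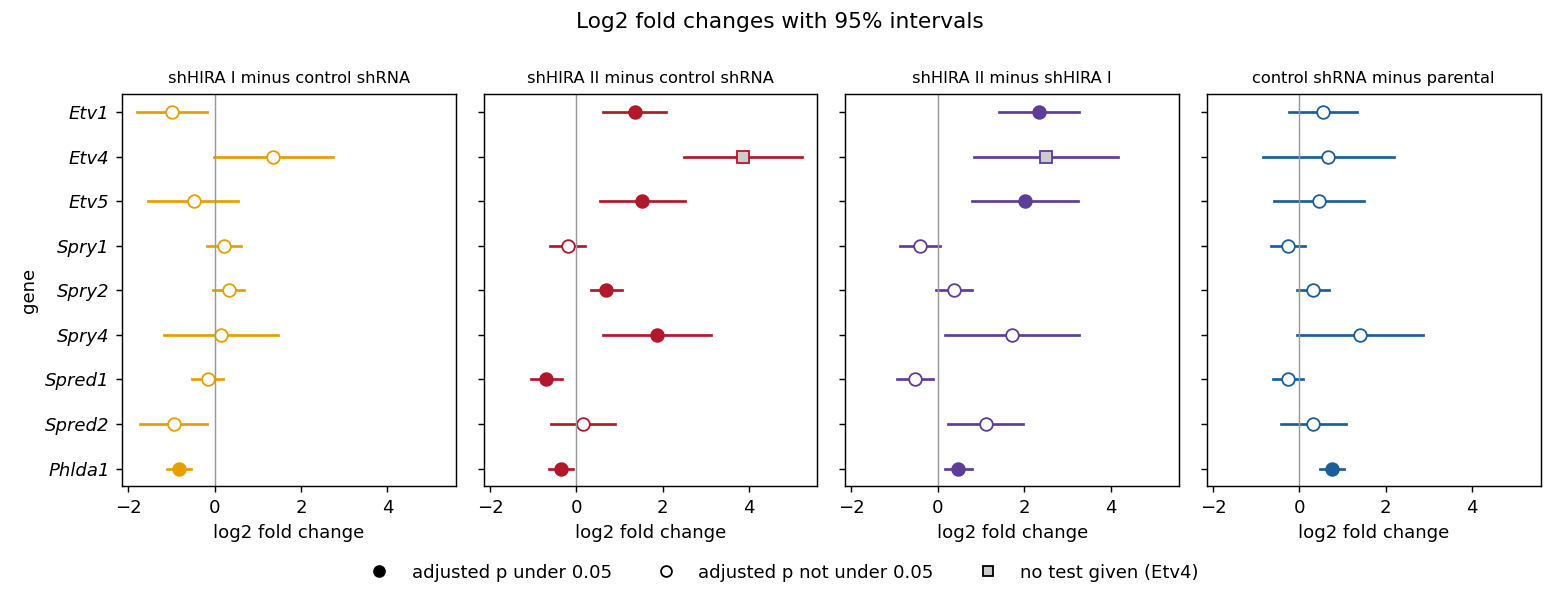
Log2 fold changes of the 9 genes in 4 comparisons, with 95% intervals as bars on a shared axis; filled points passed an adjusted p of 0.05, open points did not, and grey squares (Etv4 with shHIRA II) carry no test. Etv1, Etv5, Spry2 and Spry4 lie right of 0 and Spred1 and Phlda1 left of 0 for shHIRA II, and Phlda1 is the filled point for shHIRA I and for control shRNA against parental.

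Control shRNA against parental called 1 of 9 members, where 3.62% of all genes tested were called. This comparison cannot tell apart virus, puromycin and the presence of a control hairpin. Phlda1 rose 1.7-fold (log2 0.76 ± 0.13, SE; edgeR quasi-likelihood test, adjusted p = 0.00341), all 8 control libraries lying above all 4 parental ones, as for 3.34% of all genes tested. Spry4 was 2.64-fold higher at the fit but its spread was wide (1.4 ± 0.69, adjusted p = 0.31). Between the control hairpins, shScramble against shLuciferase, 0 of 9 members and 0 of 13541 genes (0%) passed edgeR's quasi-likelihood test, with 170 genes at an unadjusted p under 0.05 and 5 genes called by DESeq2. The members' log2 differences there ran from -1.02 to 0.06 with SE of 0.15 to 0.81, and their libraries overlapped in each case.

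Ranked by TPM, Etv4 changed its place among the members most between parental cells and shHIRA II. Its high level there was known when the genes were chosen, so this order is a description without a test. With the control hairpins Etv4 averaged 3.36 TPM (shLuciferase) and 1.58 TPM (shScramble). In parental cells Phlda1 (39.5 TPM) and Spred1 (31.1) led, followed by Spry2 (13), Etv5 (7), Spred2 (4.65), Spry1 (3.32), Etv4 (1.32), Etv1 (1.28) and Spry4 (0.275). In the libraries labelled shHIRA II the order was Phlda1 (58.3 TPM), Etv4 (35.1), Etv5 (32.2), Spry2 (29.5), Spred1 (18), Spred2 (7.46), Etv1 (5.4), Spry4 (3.07) and Spry1 (2.75). The libraries of neighbours in this order overlapped in parental cells for Spry2 with Etv5, Etv5 with Spred2, Spred2 with Spry1, and Etv4 with Etv1. With shHIRA II they overlapped for Etv4 with Etv5, Etv5 with Spry2, Spred2 with Etv1, Etv1 with Spry4 and Spry4 with Spry1.

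The rest of the pathway did not move in 1 direction. Of 11 tested genes on a list of 13 other ERK output genes, 3 rose and 4 fell with shHIRA I, and 5 rose and 1 fell with shHIRA II. The median log2 fold change over the 11 was 0.12 with shHIRA I and 0.40 with shHIRA II, beside 0.05 and 0.02 over all genes tested. Over all genes, 10.9% rose and 8.87% fell with shHIRA I, and 15.7% rose and 16.7% fell with shHIRA II, which is the background for this and the following lists. Epha2, an ephrin receptor (1.18 ± 0.32 and 1.51 ± 0.32 on the log2 scale with shHIRA I and II), and Egr1, an immediate early factor (0.89 ± 0.28 and 1.14 ± 0.28), rose with both hairpins, and Myc, a growth regulator, fell (-0.63 ± 0.12 and -0.48 ± 0.12). Dusp6, the ERK phosphatase that is a standard FGF feedback gene, fell with shHIRA I (-1.24 ± 0.29, edgeR quasi-likelihood test, adjusted p = 0.00493) and was at 0.40 ± 0.27 with shHIRA II (adjusted p = 0.263), a difference of 1.65 ± 0.32 between the hairpins (adjusted p = 0.00158). Dusp4, a nuclear phosphatase of the same family, fell with shHIRA I (-0.76 ± 0.22), while Ccnd1, the cyclin that drives G1, and Errfi1, an inhibitor of EGF receptors, rose with shHIRA II (0.84 ± 0.18 and 0.81 ± 0.15). Epha4 rose with shHIRA I (2.34 ± 0.27) and was at -0.17 ± 0.29 with shHIRA II.

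Upstream, 11 genes of a list of 13 FGF receptors, co-receptors and Kit genes were tested: 3 rose and 1 fell with shHIRA I, and 0 rose and 3 fell with shHIRA II, with medians of 0.35 and -0.11. Among those that rose with shHIRA I, Kl passed the filter on low counts through that group, at 0.792 to 2.05 CPM. Its highest value was 0.446 CPM with shLuciferase and 0.227 CPM with shScramble, so its call is a description. The 3 of 11 with shHIRA II are no more than the 32.4% of all genes called there. Kit, the SCF receptor and also 1 of the melanoblast markers above, fell with both (-1.09 ± 0.30 and -2.37 ± 0.32), and more with shHIRA II (-1.28 ± 0.33, edgeR quasi-likelihood test, adjusted p = 0.00967). Fgfr1 rose with shHIRA I (1.02 ± 0.17, adjusted p = 0.000422) and was at -0.08 ± 0.18 with shHIRA II. Flrt3, a membrane protein that binds FGF receptors, fell with shHIRA II (-1.09 ± 0.22) as did Fgfr2 (-0.74 ± 0.24). Of 5 tested regulators of PEA3 factors, 1 rose with shHIRA I, and 2 rose and 1 fell with shHIRA II, with medians of 0.14 and 0.31. Cic itself rose with shHIRA I (0.69 ± 0.16, adjusted p = 0.00397) and was at 0.20 ± 0.16 with shHIRA II (adjusted p = 0.353). Its partner gene Atxn1 fell with shHIRA II (-0.49 ± 0.17), and Rfwd2 and Det1, which belong to the ubiquitin ligase that turns PEA3 proteins over, rose there (0.31 ± 0.09 and 0.49 ± 0.13).

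Among 15 tested genes of 23 other ETS factors, 1 rose and 1 fell with shHIRA I, and 2 rose and 3 fell with shHIRA II, with medians of 0.06 and -0.25. The 5 of 15 with shHIRA II are close to the 32.4% of all genes called there, and the 2 of 15 with shHIRA I below 19.7%. Erf, an ETS repressor that ERK exports from the nucleus, rose with shHIRA II (2.05 ± 0.21, edgeR quasi-likelihood test, adjusted p = 2.36e-06) and was at 0.42 ± 0.21 with shHIRA I (adjusted p = 0.184), a difference of 1.63 ± 0.26 (adjusted p = 0.00028). Ets1 fell with both hairpins (-1.08 ± 0.17 and -0.77 ± 0.16). Elk4, a serum response partner, rose with shHIRA II (0.67 ± 0.16), and Elf1 and Elf5 fell (-1.52 ± 0.44 and -1.06 ± 0.30).

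**Figure D5:**
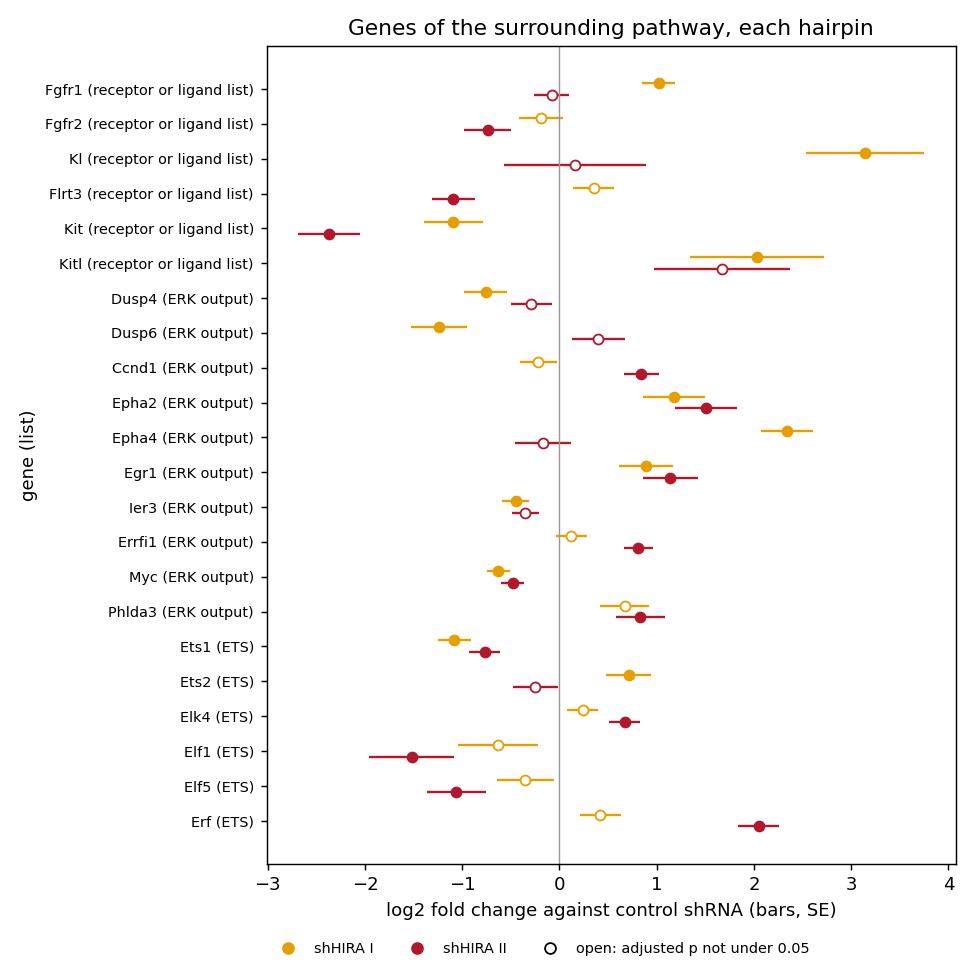
Log2 fold changes against control shRNA for the named genes of 3 pathway lists, with SE as bars; orange is shHIRA I, red is shHIRA II, and open points did not pass an adjusted p of 0.05. Epha2, Egr1, Kit, Myc and Ets1 are filled on the same side for both hairpins, while Dusp6, Epha4, Fgfr1 and Erf are filled for 1 hairpin.

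The genes most like Etv4 were found by the root mean square difference in log2 CPM, each gene centred over the 20 libraries. The 5 nearest outside the set were Acap1 (0.96), Soat2 (0.97), Il6 (0.98), Gm1070 (0.98) and Gm3448 (1.04), beside a root mean square change of Etv4 itself of 2.02. Acap1 averaged 2.6 CPM in parental, 3.09 with shScramble, 5.75 with shHIRA I and 25.3 CPM with shHIRA II. Il6 was close to the floor, at 0 CPM in parental cells and 0.87 CPM with shHIRA II. Within the set, Spry4 was nearest to Etv4 at 1.01, the 5th nearest of 13540 other genes, followed by Etv5 at 1.25 (34th), Etv1 at 1.51 (241st) and Spry2 at 1.66 (581st). These distances are descriptions over libraries that share their groups and numbers. They rest in part on the level of Etv4 with shHIRA II, which was known when the genes were chosen. A near rank is therefore no support for a link between the genes.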

How the data were processed

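Analysis began from the authors' deposited gene tables of estimated counts and TPM for 20 poly(A) libraries. Build mm10 and the tools kallisto, bcl2fastq and edgeR are named, per the submitters' processing notes; the annotation, the versions and whether strand was used are not given in the sources used here. Values in TPM, which the authors deposited beside the counts and scaled per library and transcript length, served for levels compared between genes. Columns were matched to groups by name; columns for control cells without a hairpin were taken as parental and shHIRA columns without a numeral as shHIRA I, the groups left over.

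Estimated counts were rounded to whole numbers and tested with edgeR 4.0.16 (R 4.3.3): TMM, default filter by group, quasi-likelihood F test, group means over all 20 libraries, Benjamini-Hochberg adjustment over 13541 genes, threshold 0.05. Errors of log2 fold changes are SE and those of levels SD (n = 4). Alternatives used DESeq2 1.42.0, limma 3.58.1 on log2(TPM + 1), other filters, scalings, references and left-out libraries. The script was tested on simulated data, where 46 of 100 genes set to 2-fold and 87 of 100 set to 4-fold were called for shHIRA II against control shRNA, with 5 false calls. Simulated libraries shared no variation by replicate number, so these rates may not carry over to Etv4, Etv5 and Spry4. Depth and 4 libraries a group limit precision, and p-values judge differences of means against the spread between these libraries.

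All members and Hira were named. From each pathway list the genes called in 1 direction with both hairpins could be named, and otherwise up to 4 called genes of largest change per hairpin; results of some listed genes are not reported here. The 5 genes nearest to Etv4 followed the distance given. Members and lists were chosen with earlier results of these data known. Positions come from GENCODE M21 (GRCm38) and promoters from RefSeq.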

Additional observations from a re-analysis of the deposited data

Results flagged for a closer look

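In 6 of 45 sets of 4 libraries (9 members in 5 groups), 1 library stood far from the other 3. The cut-off is set to flag about 1 in 20 independent sets of normally distributed values. These sets share libraries and hold CPM without logs, so that rate is not a background for them. All 6 are libraries numbered 1: Etv4 with shScramble (5.55 CPM) and with shHIRA I (21.9 CPM), Etv5 with shScramble (68.7 CPM), Spry1 with shScramble (7.5 CPM), and Spry4 with shLuciferase (8.78 CPM) and with shScramble (7.45 CPM).

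The effect of the hairpins differed by edgeR's test of shHIRA II minus shHIRA I (log2, adjusted p under 0.05) for Etv1 (2.34), Etv5 (2.02) and Phlda1 (0.47), and for Hira itself (0.86). Among the named pathway genes, values were higher with shHIRA II for Dusp6 (1.65), Ccnd1 (1.06), Errfi1 (0.69) and Erf (1.63). They were lower for the FGF family gene Fgf13 (-1.38) and the receptor and co-receptor genes Fgfr1 (-1.1), Kl (-2.99), Flrt3 (-1.44) and Kit (-1.28). Kl was close to the floor, averaging 1.36 CPM with shHIRA I and 0.165 CPM with shHIRA II. It passed the filter on low counts through the shHIRA I libraries, so its difference is a description. Values were also lower for the adaptors Gab1 (-1.22) and Shc1 (-0.43), the scaffold gene Shoc2 (-0.75), Epha4 (-2.5) and Ets2 (-0.96).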

How the results depend on the processing

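Of the single genes and values recomputed under the alternatives, 769 of 839 settings kept direction and side of the threshold, 37 lost a call, 22 gained one, 6 moved and 5 reversed. Reversed were Spry4 with shHIRA I against shLuciferase alone (-0.02), Spry1 with shHIRA I against parental (-0.04) and Phlda1 with shHIRA II against parental (0.41); leaving out 1 library gave ranges of -0.84 to 0.65 for Spry4 and -0.36 to 0.04 for Spred1 with shHIRA I. The cause was not tested.

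Members called with shHIRA I were 1 (3 by DESeq2; 1 to 3 on leaving out 1 library) and with shHIRA II 6 (0 with the mitochondrial share as a term, 3 against shLuciferase alone, 3 against shScramble alone; 3 to 6 on leaving out 1 library). Of all genes, shHIRA II called 4394 (2767 with the mitochondrial share), shHIRA I 2671 (1777 with only the groups compared, 1619 against shLuciferase alone), and shHIRA II against shHIRA I 2845 (1088 with only the groups compared; 1997 to 4430 on leaving out 1 library). Control shRNA against parental called 490 (798 with the mitochondrial share, 889 by DESeq2, 316 on TPM, 880 with only the groups compared, 243 without libraries numbered 1; 214 to 612 on leaving out 1 library). The control hairpins differed in 0 genes (5 by DESeq2, 1 with only the groups compared, 1 without libraries numbered 1).

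With the replicate number as a block in edgeR's quasi-likelihood test, 4 members were called with shHIRA I. They were Phlda1, Etv1 (-1.03, adjusted p = 0.0264), Etv4 (1.26, 0.0141) and Spred2 (-0.92, 0.0496). For shHIRA II against control shRNA, 4 of the 8 members other than Etv4 were called higher and 2 lower. The higher ones were Etv1 (1.49, adjusted p = 0.000819), Etv5 (1.73, 0.000188), Spry2 (0.70, 0.00071) and Spry4 (2.29, 0.000199). The lower ones were Spred1 (-0.68, 0.00498) and Phlda1 (-0.36, 0.0488). Called higher with shHIRA II than with shHIRA I were 5 members. These were Etv1, Etv5, Phlda1, Spry4 (2.24, 0.00232) and Spred2 (1.12, 0.0319). The requirement that every same-numbered pair correlate above 0.1 was not met, so the block was kept as an alternative. Over 40 same-numbered pairs the correlation of deviations was -0.31 to 0.42 (median 0.07, 17 over 0.1). Over 120 pairs of different number it was -0.29 to 0.47 (median -0.02, 16 over 0.1). Of 20 libraries, 13 correlated best with their own number. Libraries of 1 number thus shared some variation, a hint from the data and not the design.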

Other observations

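Of 22 FGF family genes, not all of which encode ligands of FGF receptors, 4 were tested. Their median log2 fold changes were 0.66 with shHIRA I and 0.21 with shHIRA II. Of the 4, 1 rose and 1 fell with shHIRA I, and 1 rose and 2 fell with shHIRA II. Fgf1 fell with both hairpins (-0.86 ± 0.23 with shHIRA I and -0.63 ± 0.23 with shHIRA II, log2 and SE), Fgf9 rose with shHIRA I (1.93 ± 0.55, edgeR quasi-likelihood test, adjusted p = 0.0181), and Fgf21 rose (2.21 ± 0.54, adjusted p = 0.0045) and Fgf13 fell (-0.72 ± 0.27, adjusted p = 0.047) with shHIRA II. Fgf9 and Fgf21 were close to the floor. Fgf9 averaged 0.579 CPM with shLuciferase, 0.305 with shScramble and 1.64 with shHIRA I. Fgf21 averaged 0.366 CPM with shLuciferase, 0.319 with shScramble and 1.61 with shHIRA II. It passed the filter on low counts through the libraries labelled shHIRA II, at 1.13 to 2.19 CPM there. Its highest value was 0.455 CPM with shLuciferase and 0.381 CPM with shScramble. Its call with shHIRA II is therefore a description. In the RAS-ERK cascade, 24 of 26 listed genes were tested, with median log2 fold changes of 0.05 with shHIRA I and -0.04 with shHIRA II. With shHIRA I, Gab1, an adaptor, rose (0.79 ± 0.18). With shHIRA II, Braf rose (0.90 ± 0.22), and Shoc2, a scaffold protein of the cascade (-0.85 ± 0.19), and Shc1, an adaptor (-0.63 ± 0.13), fell, as did Araf (-0.42 ± 0.14), which lies outside the naming rule and was added after its value was seen.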
